A study of Bos taurus with 8 samples.

Results

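The comparison set trophectoderm (TE) against the morula, to show what the outer epithelium of the bovine embryo gained and lost after the morula stage. It used the samples labelled morula, replicates 1 and 2, and those labelled TE, replicates 1 and 2, which are 4 of the 8 samples of the series, and all 43653 gene probes of the 45220 spots on the array. The morulae were whole embryos collected on day 5. The TE was cut by hand with tungsten needles from the inner cell mass (ICM) of blastocysts collected on day 9. By the study's account, some TE cells stayed attached to the isolated ICM. All embryos were made in vitro from slaughterhouse oocytes, with frozen-thawed bull sperm and culture in synthetic oviduct fluid, and each sample was a pool of embryos of unstated breed and sex. Every sample shared its array with 1 common reference, pooled RNA of blastocysts, with Cy3 on the sample in replicate 1 and Cy5 on it in replicate 2, and the remaining arrays held intact blastocysts and the ICM of day 9. The 2 blastocyst samples were, by the study's notes, the same RNA that made up the pool, so that their ratios near 0 were fixed by the design. Values are log2 ratios of sample over pool, so that 0 is the level of the blastocyst pool. Age, dissection and tissue differed together between the 2 groups and cannot be told apart, and in pooled tissue fewer cells of a type and less RNA per cell cannot be told apart either.

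In the morula all cells are compacted into a ball, and its outer cells become the TE when the blastocyst cavity forms. The TE is a polarized epithelium, sealed by tight junctions and tied together by desmosomes, whose sodium pumps move fluid into the cavity and whose apical membrane carries microvilli. In cattle it expands into the trophoblast, which secretes interferon tau and pregnancy-associated glycoproteins and later takes part in forming the placenta. The ICM holds the pluripotent cells that give rise to the embryo proper and to the primitive endoderm.

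Of 12552 genes, each read by its brightest probe, 1396 were higher in TE and 1147 were higher in morulae, at an adjusted p under 0.05 in limma and at least 2-fold. These were 11.1% and 9.14% of the genes tested, 20.3% together, and over all gene probes 14.8% were called, 3389 higher in TE and 3074 higher in morulae. Counts of the gene lists below are to be read against these shares of the genes tested. By the brightest probes and without background subtraction, the gains were larger than the losses. The probes were chosen by brightness over channels that mostly held blastocyst material, and the part of this choice in these sizes was not tested. The median fold was 3.30 among genes higher in TE and 2.69 among genes higher in morulae, and 157 genes were at least 10-fold higher in TE, against 32 in morulae. The balance of gains and losses depended on the scaling: 54.9% of the called genes were higher in TE after loess, and 44.3% when each array was only centred on its median. In 2542 of the 2543 called genes the morula and TE replicates did not overlap, which a call on 2 arrays per group all but requires. A lack of overlap among called genes, here and below, is thus no further support for them. Of 1934 called genes with more than 1 probe, 873 had another probe called in the same direction and 19 had one called in the opposite direction. Among the genes named below, ANXA3, CLDN23, FLRT3, HSD3B, KIT, M6PRBP1, PKP3, PLS1, SAMD14, SLC16A7, SLC25A37, USP18, WNT2B and WWC1 were above background on only 1 of 2 morula arrays, and JAM2, KLRC1, POLR1C and RBP4 on only 1 of 2 TE arrays, so that their folds are less certain.

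**Figure D1:**
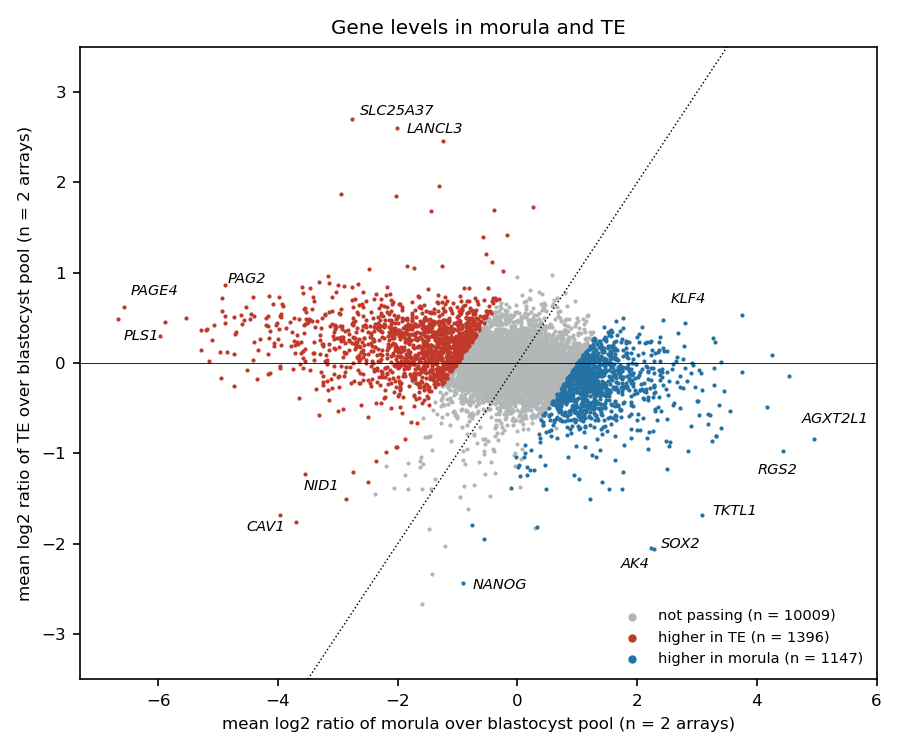
Mean log2 ratio over the blastocyst pool in TE (vertical axis) against that in morulae (horizontal axis) for 12552 genes, 2 arrays per group. Red points are the 1396 genes higher in TE, blue points the 1147 higher in morulae and grey points those that did not pass, and the dotted line marks equal levels. Morula values spread far along the horizontal axis, while most TE values lay near the level of the pool.

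The morulae lay further from the blastocyst pool than the TE did. The log2 ratios over the pool had a standard deviation of 0.753 and 0.802 in the morula replicates and of 0.248 and 0.270 in the TE replicates. The difference of TE from morula in replicate 1 correlated with that in replicate 2 at 0.923 over the gene probes, which are not independent replicates. The log2 ratios over the pool correlated at 0.915 between the morula replicates, but only at 0.520 between the TE replicates. Median sample intensities were 403 and 536 in morulae and 351 and 493 in TE over local backgrounds of 46 to 57, and between 90.3% and 93.3% of the gene probes of these 4 arrays lay more than 2 standard deviations above the local background.

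Of the chosen markers, 6 of 7 of trophoblast, 4 of 6 of the morula and 4 of 8 of the epiblast were measured. These followed the labels, with 1 exception among those of trophoblast. The markers were chosen with earlier results of these data known, so that they are not an independent check of the labels. GATA3, a trophoblast transcription factor, had log2 ratios of -1.93 and -2.54 in the morula replicates and 0.31 and 0.48 in the TE replicates, a 6.21-fold difference (SE 0.19 on the log2 scale, adjusted p = 0.000186). ASCL2, an imprinted factor of early trophoblast, was -3.66 and -4.40 in morulae and 0.31 and 0.54 in TE, a 21.9-fold difference (adjusted p = 6.54e-05), with 1 of the 2 morula arrays above background. The groups did not overlap in either gene. TFAP2C, which trophoblast shares with earlier embryonic cells, was the exception, at -0.12 and 0.41 in morulae and -0.30 and 0.38 in TE (log2 difference -0.11, SE 0.17, adjusted p = 0.703). The morula markers KLF4, SOX2, ARGFX and KPNA7 were all higher in morulae, as were the epiblast markers NANOG, SOX2, PRDM14 and ZIC2. Of 5 primitive endoderm markers, NID1 was higher in TE and GATA4, GATA6, SOX17 and HNF4A did not pass. GATA6 does not mark primitive endoderm alone here, since the study's staining found it in all cells of the TE. HNF4A was near the pool level on every array, in the ICM too. The study, which took probes by another rule, lists it as higher in the ICM than in TE, so that its result here is uncertain. Among 10 markers of cumulus and granulosa cells only COL1A2 was called, higher in TE, and every marker was above background on at least 1 array of each group. The mean log2 ratio over these 10 markers was -0.91 and -0.10 in the morula replicates and -0.37 and -0.07 in the TE replicates, and their part in the differences below was not tested.

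The 15 largest gains ran from 42.6-fold to 146-fold. PAGE4, a cancer/testis antigen that is also expressed in placenta, had log2 ratios of -6.54 and -6.61 in morulae and 0.49 and 0.75 in TE, a 146-fold difference (SE 0.12, adjusted p = 9.66e-06). PLS1, which codes for the actin bundling protein plastin 1 of microvilli, was -6.35 and -7.00 in morulae and 0.40 and 0.58 in TE, 144-fold higher in TE (SE 0.27, adjusted p = 2.72e-05). Both TE values of either gene lay above the pool and both morula values far below it. ALDH1A3, an enzyme that makes retinoic acid, was -5.81 and -5.96 in morulae and 0.31 and 0.60 in TE (81.1-fold, adjusted p = 1.68e-05). None of its other probes was called. ANXA3, a calcium-dependent membrane binding annexin, rose 77.4-fold and MYOF, the ferlin myoferlin of membrane repair and fusion, rose 65.8-fold. The 15 largest gains went on with PLAU, the secreted urokinase (54.0-fold), PAG2 (50.8-fold), AGRN, the basement membrane proteoglycan agrin (50.6-fold), HMOX1, which breaks down heme (47.6-fold), CYP51A1 of sterol synthesis (47.0-fold) and the desmosomal cadherin DSC2 (45.5-fold). PLAU, CYP51A1 and DSC2 were saturated on 1 of 2 TE arrays, so that their folds and their order are uncertain. ANKH, a pyrophosphate transport protein, SLC25A37, the mitochondrial iron importer mitoferrin 1, GCA, the calcium-binding grancalcin, and MOSC2, a molybdenum enzyme of the mitochondrion now named MTARC2, were between 42.6 and 45.2-fold higher in TE. Within the 15, SLC25A37 had the highest level over the pool in TE, at 2.77 and 2.64, against -2.47 and -3.06 in morulae. No other probe of PLAU, AGRN or SLC25A37 was called.

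The 15 largest losses were smaller, from 14.4-fold to 55.9-fold. AGXT2L1, a phospholyase of phosphoethanolamine now named ETNPPL, had log2 ratios of 4.25 and 5.67 in morulae and -0.66 and -1.03 in TE, 55.9-fold higher in morulae (SE 0.39, adjusted p = 0.000133). RGS2, a regulator that shortens G protein signalling, was 3.34 and 5.52 in morulae and -1.58 and -0.36 in TE (42.2-fold, SE 0.54, adjusted p = 0.000569). Replicates of these genes were further apart than those of the largest gains, and the groups did not overlap. MFSD2, the transporter of lysophospholipids now named MFSD2A, was 3.74 and 5.34 in morulae and -0.12 and -0.17 in TE (25.7-fold, adjusted p = 0.000602). The other losses among the first 15 included TKTL1, a transketolase-like protein (27.3-fold), AK4, an adenylate kinase of the mitochondrion (20.3-fold), TGFBI, a secreted matrix protein (17.9-fold), GLDC, which cleaves glycine (16.8-fold), the adhesion protein PCDH8 (14.4-fold), the chemokine CXCL2 and the lectin-like receptor KLRC1 (both 17.4-fold) and CSF1R, the receptor of colony stimulating factor 1 (14.4-fold).

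**Figure D2:**
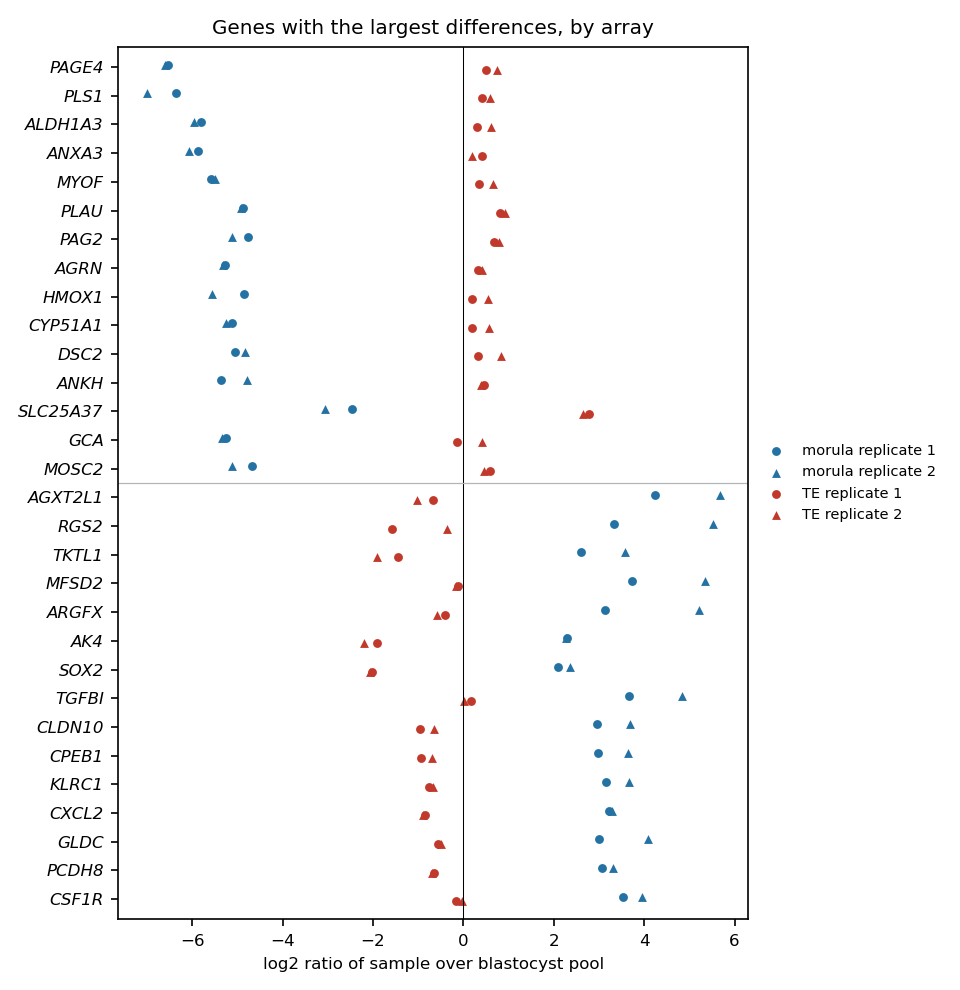
Log2 ratio over the blastocyst pool (horizontal axis) on each array for the 15 genes with the largest gains (above the grey line) and the 15 with the largest losses (below it) in TE. Circles are replicate 1 and triangles replicate 2, blue for morula and red for TE. Morula and TE values did not overlap for any of the 30 genes, and the losses spread more between the morula replicates than the gains.

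Trophoblast transcription factors were gained and none was called lost. Of 29 measured, 11 rose, 37.9% against 11.1% of all genes, and the median log2 difference was 0.53 against 0.03 over all genes. GRHL1, a grainyhead factor of epithelia, was -4.41 and -4.84 in morulae and 0.42 and 0.64 in TE (35.5-fold, SE 0.18, adjusted p = 2.41e-05). TFAP2A was -3.59 and -3.46 in morulae, where 1 of 2 arrays was above background, and 0.34 and 0.54 in TE (15.6-fold, adjusted p = 4.71e-05). Factors of the GATA family also moved: GATA2 was -3.20 and -3.58 in morulae and 0.22 and 0.59 in TE (13.9-fold, adjusted p = 5.51e-05). TEAD3, a DNA-binding partner of YAP, rose less, from -0.45 and -1.26 to 0.29 and 0.19 (2.13-fold), a call that was lost when the arrays were centred on the median and without morula replicate 2 or TE replicate 2. KLF5, which trophoblast and pluripotent cells share, was -0.67 and -1.10 in morulae and -0.17 and 0.22 in TE and did not reach the fold minimum (log2 difference 0.91, adjusted p = 0.0203).

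Products of the trophoblast were gained in part. Pregnancy-associated glycoproteins (PAGs) are aspartic proteinase relatives that ruminant trophoblast releases into the mother. Of 11 measured 6 rose (54.5%, against 11.1% of all genes) and none fell. PAG2 was -4.76 and -5.12 in morulae and 0.67 and 0.78 in TE (SE 0.20, adjusted p = 2.34e-05), and the other 7 probes of the gene were called in the same direction. PAG6 was -4.34 and -4.60 in morulae and 0.64 and 0.35 in TE (31.3-fold), PAG17 -4.24 and -4.55 and then 0.60 and 0.43 (30.2-fold), and PAG8 -3.34 and -3.64 and then 0.49 and 0.42 (15.4-fold). The 6 called members lay between -5.12 and -2.12 in morulae and between 0.35 and 0.78 in TE, without overlap. PAG9, at -0.08 and 0.14 in morulae and -0.31 and 0.04 in TE, did not pass, nor did PAG12. The PAGs are a multigene family of near-identical copies, so that probes may read more than 1 member. Of 18 other products of trophoblast 3 rose (16.7%), PAGE4, PLAU and PLAC8, and 15 did not pass, with a median log2 difference of 0.13. Of 10 enzymes of prostaglandin and steroid synthesis 4 rose, 7 of 28 in all. Among them were PLAU, from -4.87 and -4.92 to 0.81 and 0.91 with TE saturated on 1 array, PLAC8, a placental gene, from -4.16 and -4.89 to 0.14 and -0.31 (21.8-fold), and HSD3B, the 3-beta-hydroxysteroid dehydrogenase of progesterone synthesis, from -4.01 and -3.73 to 0.29 and 0.48 (19.1-fold). The calls of PLAU and PLAC8 did not hold by the brightest unsaturated probe. By contrast STAR, which moves cholesterol into mitochondria for steroid synthesis, was -0.98 and 0.29 in morulae and -0.62 and 0.54 in TE, and its replicates overlapped.

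The parts of an epithelium were gained unevenly. Desmosomes and adherens junctions had 9 of 19 genes (47.4%) higher in TE and 2 (10.5%) higher in morulae. Of the 10 plaque proteins 6 rose. DSC2, the cadherin desmocollin 2, was -5.05 and -4.82 in morulae and 0.32 and 0.83 in TE (SE 0.15, adjusted p = 1.62e-05). DSP, or desmoplakin, which anchors keratin to the plaque, was -3.54 and -3.91 in morulae and 0.07 and 0.33 in TE (15.2-fold), and PKP1, or plakophilin 1, -3.65 and -4.69 in morulae and -0.02 and -0.23 in TE (16.5-fold). None of the other 5 probes of DSP was called, and its call did not hold by the brightest unsaturated probe or the mean over probes. Their relatives DSC3 and PKP3 went the other way: desmocollin 3 was 1.48 and 1.61 in morulae and 0.05 and 0.11 in TE (2.77-fold higher in morulae, adjusted p = 0.000336). PKP3, or plakophilin 3, was 1.17 and 1.12 in morulae and 0.10 and 0.07 in TE (2.08-fold), and both of these calls were lost with normexp background correction.

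Tight junctions and polarity genes had 11 of 37 (29.7%) higher in TE and 4 (10.8%) higher in morulae, and claudins were called in both directions. CLDN1, or claudin 1, a sealing claudin, was -3.95 and -4.09 in morulae and 0.40 and 0.48 in TE (22.0-fold, SE 0.12, adjusted p = 1.54e-05), and CLDN23 was -3.47 and -3.66 in morulae and 0.42 and 0.77 in TE (17.9-fold). CLDN10, a claudin that forms ion pores, was 2.96 and 3.69 in morulae and -0.96 and -0.64 in TE, 17.5-fold higher in morulae (SE 0.25, adjusted p = 0.000102). All 3 junctional adhesion molecules measured were higher in morulae: JAM2 at 0.73 and 1.31 against -0.54 and -0.58 (2.98-fold), JAM3 at 0.93 and 0.93 against -0.16 and -0.76 (2.62-fold) and F11R, also called JAM-A, at 1.20 and 1.43 against 0.26 and 0.03 (2.24-fold). Inside the junction, the plaque protein cingulin (CGN) rose 5.46-fold and the polarity scaffold DLG1 4.09-fold. PARD3, a core polarity protein, was 1.71-fold higher in TE at an adjusted p of 0.00275 and missed the fold minimum. The F11R call did not hold without TE replicate 2, and those of F11R, JAM3 and DLG1 did not hold for the mean over all probes of each gene.

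Keratins and other intermediate filament genes had 8 of 45 (17.8%) higher in TE and 1 (2.22%) higher in morulae. KRT19, a keratin of simple epithelia, was -1.88 and -2.40 in morulae and 0.27 and 0.24 in TE (5.26-fold, SE 0.15, adjusted p = 0.000119). KRT8 and KRT18, which the study lists among its largest gains from morula to blastocyst, are not among the genes named here. KRT8 was not measured under that symbol. PRPH, or peripherin, a filament protein known from neurons, was -4.17 and -4.42 in morulae and 0.20 and 0.34 in TE (23.7-fold, SE 0.14, adjusted p = 2.02e-05) and was also higher in TE than in the ICM, at -0.94 and -1.15 (adjusted p = 0.0133). KRT15, of basal epithelial cells, was -2.67 and -2.96 in morulae and 0.39 and 0.09 in TE, but 1 of its other probes was called in the opposite direction. KRT5, counted as higher in morulae, was not above background on any of the 4 arrays, and no fold is given. LMNA, the nuclear lamin, did not pass.

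Microvilli and apical membrane genes had 8 of 29 (27.6%) higher in TE and 2 (6.9%) higher in morulae. The latter count was smaller without morula replicate 1 or either TE replicate. The gain of PLS1 is given above. PDZK1, a scaffold under the microvillus membrane, was -4.78 and -5.41 in morulae and 0.44 and 0.07 in TE (40.8-fold, SE 0.10, adjusted p = 9.66e-06). The apical mucin MUC1 was -3.70 and -4.16 in morulae and 0.82 and 0.48 in TE (24.0-fold), and EZR, or ezrin, which links the membrane to actin, -3.40 and -3.73 in morulae and 0.38 and 0.46 in TE (15.8-fold). FSCN1, or fascin, which bundles actin in filopodia, was higher in morulae, at 1.75 and 1.33 against 0.26 and 0.12 (2.55-fold). Among annexins, ferlins and S100 proteins, which bind calcium at membranes, 14 of 32 (43.8%) rose. S100B was the only one that fell (3.12%), at -0.19 and 0.14 against -0.96 and -1.12 (2.02-fold). That single loss was no longer called without morula replicate 2, without either TE replicate or with normexp background correction. ANXA3 was -5.88 and -6.08 in morulae and 0.41 and 0.18 in TE (SE 0.17, adjusted p = 1.62e-05), MYOF -5.59 and -5.50 in morulae and 0.34 and 0.65 in TE (SE 0.13, adjusted p = 9.66e-06), and ANXA4 -4.86 and -3.82 in morulae and -0.02 and 0.30 in TE (22.3-fold).

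Ion and water transport genes were called at no higher a share than all genes. Of 38 pumps, channels and exchangers 4 were higher in TE (10.5%, against 11.1% of all genes) and 2 were higher in morulae (5.26%, against 9.14%). Of 8 sodium pump genes 2 were called higher in TE, and the median log2 difference of the 8 was 0.02. The 2 code for beta subunits. ATP1B1 was -1.16 and -0.97 in morulae and 0.10 and 0.30 in TE (2.40-fold, adjusted p = 0.00199). ATP1B3, saturated on 1 of 2 morula arrays, was -0.65 and -1.61 in morulae and 0.42 and -0.18 in TE (2.38-fold). The ATP1B1 call was lost with median centring, and that of ATP1B3 without the replicate block and with the series matrix values. AQP3, a channel for water and glycerol, was higher in morulae, at 1.86 and 1.68 against 0.45 and 0.54 (2.41-fold, SE 0.11, adjusted p = 0.000307). CLIC4, an intracellular chloride channel protein, was -2.14 and -2.55 in morulae and 0.10 and -0.24 in TE (4.83-fold), and stood at -0.79 and -0.98 in the ICM, which was less than 2-fold below TE (adjusted p = 0.0162).

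Matrix, integrin and protease genes were gained in 23 of 101 cases (22.8%) and lost in 2 (1.98%). AGRN was -5.27 and -5.31 in morulae and 0.32 and 0.42 in TE (SE 0.13, adjusted p = 9.85e-06). Membrane-bound serine proteases of epithelia rose too: ST14, or matriptase, was -2.86 and -3.43 in morulae and 0.57 and 0.57 in TE (13.2-fold), and TMPRSS4 was 9.32-fold higher in TE (adjusted p = 0.000318). The laminin chains LAMC1 and LAMB1, which cells of the TE and the primitive endoderm lay down in the basement membrane, rose 3.42-fold and 3.11-fold. Both losses were in the matrix. COL17A1, the collagen of hemidesmosomes, was 2.12 and 2.91 in morulae and -0.31 and -0.40 in TE (7.32-fold higher in morulae, adjusted p = 0.000789), and SPARC, a collagen-binding protein, 1.20 and 1.68 in morulae and -0.85 and -0.57 in TE (4.42-fold). On the list of primitive endoderm markers, which shares the laminins and SPARC, 5 of 18 rose (27.8%) and 1 fell (5.56%). None of the 6 transcription factors passed. The mean log2 ratio over the 5 primitive endoderm markers named earlier was -0.51 and -0.43 in morulae and -0.25 and -0.22 in TE. It includes GATA6 and HNF4A, with the limits given there, and the part of primitive endoderm in the matrix genes was not tested. GATA6 was 1.19 and 1.02 in morulae and 0.11 and 0.16 in TE, 1.95-fold lower in TE at an adjusted p of 0.00521, just under the fold minimum. Among 17 cumulus and granulosa cell markers 2 rose, 11.8% against 11.1% of all genes, the collagen COL1A2 from -2.77 and -1.85 to 0.29 and 0.22 and CYP19A1, the aromatase of oestrogen synthesis, from -0.76 and -0.68 to 0.49 and 0.59. CYP19A1 is also counted among the 4 risen trophoblast enzymes of prostaglandin and steroid synthesis above, so that it does not mark cumulus and granulosa cells alone here. COL1A1 and DCN, the most intense of the others, differed by 0.13 and 0.23 on the log2 scale.

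Cholesterol synthesis was the list with the highest share of gains. Cells build cholesterol from acetyl-CoA through mevalonate, squalene and lanosterol, and 13 of 14 measured enzymes of this route were higher in TE. Their log2 ratios lay between -5.25 and -1.23 in morulae and between -0.15 and 0.89 in TE, without overlap, and their folds ran from 3.09 to 47.0 with a median of 7.56. HMGCS1, which makes HMG-CoA at the start of the route, was -3.93 and -4.06 in morulae and 0.21 and 0.32 in TE (19.2-fold, SE 0.12, adjusted p = 1.65e-05). IDI1, which isomerizes the isoprene unit, was -3.53 and -3.64 in morulae and 0.09 and 0.19 in TE (13.2-fold). SQLE, the squalene epoxidase, was -3.08 and -2.93 in morulae and 0.85 and 0.89 in TE (14.7-fold, SE 0.11, adjusted p = 1.68e-05). CYP51A1, which removes a methyl group from lanosterol, was -5.11 and -5.25 in morulae and 0.18 and 0.56 in TE (SE 0.19, adjusted p = 2.34e-05), with 1 TE array saturated. Among 6 regulators and receptors 1 rose, and SREBF2, the transcription factor that drives these enzymes, was -0.69 and -0.05 in morulae and -0.06 and 0.18 in TE (log2 difference 0.43, adjusted p = 0.0478). INSIG2, which holds that factor back, was at 1.98-fold (adjusted p = 0.000454) and thus just under the minimum. Over the whole list the count was 14 of 20, the median log2 difference was 2.31, and the count stayed between 13 and 16 under all scalings and with each replicate left out.

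**Figure D3:**
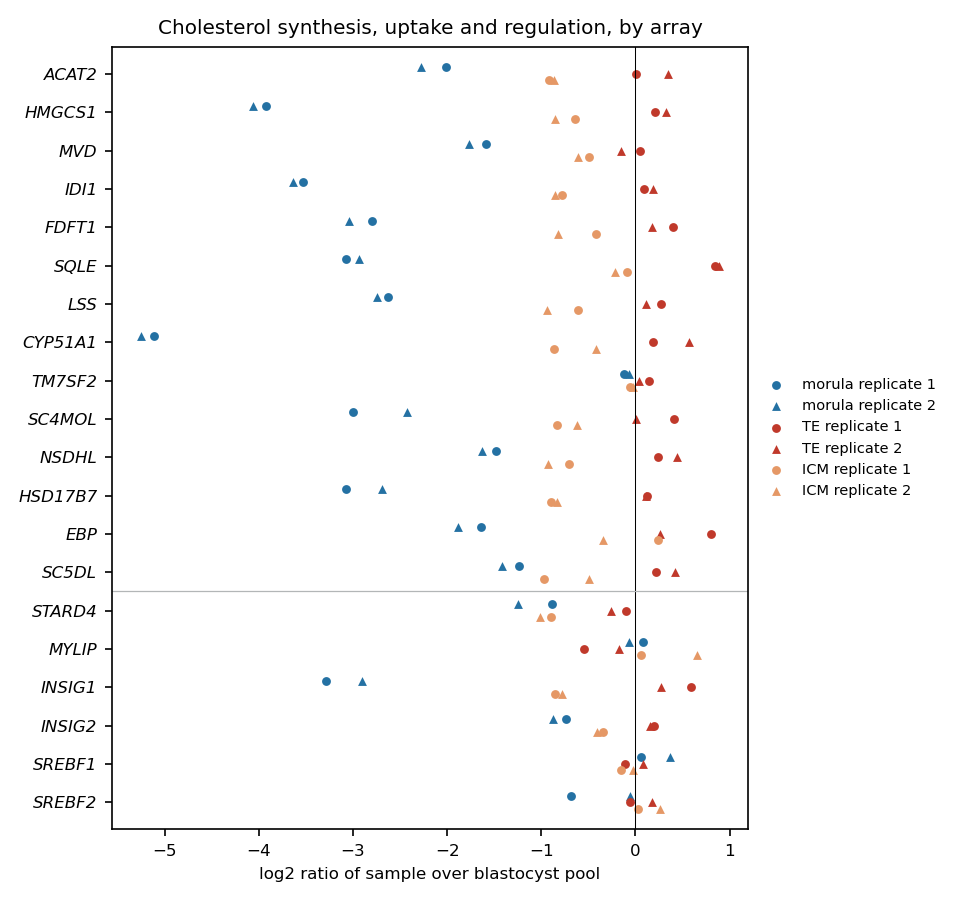
Log2 ratio over the blastocyst pool (horizontal axis) on each array for the measured enzymes of cholesterol synthesis in the order of the route (above the grey line) and for regulators (below it). Circles are replicate 1 and triangles replicate 2, blue for morula, red for TE and orange for ICM. For 13 of the 14 enzymes both morula values lay below both TE values by at least 3.09-fold in the fit, TM7SF2 being the exception.

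Lipid handling beyond sterols moved in both directions. Of 21 genes of lipoprotein and cholesterol transport 8 rose and none fell. APOA1, the main protein of high density lipoprotein, was -5.03 and -4.43 in morulae and -0.18 and -0.33 in TE (22.2-fold, adjusted p = 4.43e-05), SCARB2, a lysosomal membrane protein, -3.40 and -2.69 in morulae and 0.27 and 0.53 in TE (10.9-fold) and NPC1, which exports cholesterol from lysosomes, -2.10 and -2.47 in morulae and 0.74 and 0.55 in TE (7.62-fold). APOE, at a log2 difference of -0.13, did not pass. Fatty acid synthesis and desaturation had 9 of 18 genes higher in TE and 1 higher in morulae. The desaturases FADS1 and FADS2, which make polyunsaturated fatty acids, both rose by their brightest probes. FADS1 was -3.66 and -3.65 in morulae and 0.35 and 0.62 in TE (17.6-fold) and FADS2 -3.05 and -3.20 in morulae and 0.31 and 0.50 in TE (11.6-fold). FADS1 was saturated on 1 TE array, neither of its other 2 probes was called, and its call did not hold by the brightest unsaturated probe. ACSL3 and ACSL1, which activate long-chain fatty acids, moved apart: the first rose 10.3-fold and the second was 2.38-fold higher in morulae.

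Among 38 genes of lipid droplets, fatty acid uptake and oxidation 9 were higher in TE (23.7%, against 11.1% of all genes) and 5 higher in morulae (13.2%, against 9.14%). Droplet coat proteins split: PLIN3, listed as M6PRBP1, was -1.77 and -2.17 in morulae and 0.30 and -0.03 in TE (4.32-fold), while PLIN2, which coats most droplets, was 1.49 and 1.09 in morulae and -0.60 and -0.67 in TE, 3.81-fold higher in morulae (adjusted p = 0.0016). Fatty acid binding proteins split as well. FABP5, of epidermis, was -2.17 and -1.94 in morulae and 0.03 and -0.08 in TE (4.08-fold), and FABP3, of heart muscle, 1.34 and 1.49 in morulae and -1.16 and -1.48 in TE, 6.63-fold higher in morulae (SE 0.15, adjusted p = 7.36e-05). SLC25A20, the carrier that brings acylcarnitines into mitochondria for oxidation, was 1.23 and 1.34 in morulae and -0.49 and -0.50 in TE (3.43-fold higher in morulae). Retinoid genes had 1 of 27 higher in TE (3.7%, against 11.1% of all genes) and 4 higher in morulae (14.8%, against 9.14%). Enzymes that make retinoic acid were called in both directions, ALDH1A3 by its brightest probe only. ALDH1A3, given above, rose, and ALDH1A1 was 2.85 and 3.17 in morulae and -0.21 and -0.62 in TE, 10.8-fold higher in morulae (SE 0.21, adjusted p = 0.000103). Other retinoid genes higher in morulae were ADH5 (4.33-fold), RDH10, which makes retinaldehyde (2.88-fold), and the retinol carrier RBP4 (3.69-fold), the last a call that did not hold without morula replicate 2, without either TE replicate or with normexp background correction.

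Sugar metabolism had 12 of 33 genes (36.4%) higher in TE and 3 (9.09%) higher in morulae. SLC16A7, a carrier of pyruvate and lactate, was -4.14 and -4.71 in morulae and 0.76 and 0.69 in TE (35.5-fold, SE 0.29, adjusted p = 7.8e-05). The pair PFKFB3 and PFKFB4, enzymes that set the level of the glycolysis activator fructose 2,6-bisphosphate, moved in opposite directions. PFKFB3 was -4.08 and -4.25 in morulae and 0.60 and 0.44 in TE, 25.7-fold higher in TE (SE 0.10, adjusted p = 9.66e-06), and PFKFB4 1.98 and 2.38 in morulae and -0.92 and -0.98 in TE, 8.73-fold higher in morulae (SE 0.23, adjusted p = 0.000186). LDHA, the lactate dehydrogenase, rose 6.03-fold and TPI1 5.28-fold, and GPI, glucose phosphate isomerase, was 2.90-fold higher in morulae. TKTL1 was 2.61 and 3.57 in morulae and -1.45 and -1.92 in TE (SE 0.31, adjusted p = 0.000123), while TKT, the main transketolase, had overlapping replicates and did not pass. Amino acid transporters were higher in TE for 11 of 45 genes (24.4%) and higher in morulae for 3 (6.67%). The cationic carrier family member SLC7A4 was -3.16 and -3.63 in morulae and 0.66 and 0.72 in TE (16.9-fold), and SLC43A3 -2.67 and -2.86 in morulae and 0.85 and 0.84 in TE (12.2-fold). SLC1A5, the glutamine transporter, was 2.71 and 3.41 in morulae and -0.17 and -0.06 in TE, 9.03-fold higher in morulae (adjusted p = 0.000421), and SLC6A6, the taurine transporter, 3.20-fold.

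Lysosomal and antioxidant enzymes were gained more often than the average gene was. Among lysosome and endocytosis genes 24 of 60 (40.0%) were higher in TE and 5 (8.33%) higher in morulae. Of the 24 hydrolases 13 rose and 1 fell. The cathepsin proteases CTSZ and CTSD, the second listed as CATD, rose with 1 TE array of each saturated. CTSZ was -3.99 and -4.17 in morulae and 0.68 and 0.62 in TE (26.5-fold) and CATD -3.92 and -4.40 in morulae and 0.54 and 0.29 in TE (23.8-fold). ARSA, arylsulfatase A, was -3.62 and -4.21 in morulae and 0.64 and 0.62 in TE (23.3-fold, SE 0.15, adjusted p = 2.34e-05). DAB2, an endocytic adaptor of extraembryonic cells, rose from -2.92 and -3.39 to 0.09 and 0.34 (10.3-fold), and TFRC, the transferrin receptor of iron uptake, was 2.79 and 3.76 in morulae and -0.07 and -0.42 in TE, 11.5-fold higher in morulae (adjusted p = 0.000382). Oxidative stress and detoxification genes rose in 13 of 37 cases and fell in 2. HMOX1 was -4.85 and -5.57 in morulae and 0.19 and 0.54 in TE (SE 0.27, adjusted p = 5.51e-05), PRDX6, a peroxiredoxin, -2.89 and -3.24 in morulae and 0.42 and 0.27 in TE (10.6-fold), and GCLM, of glutathione synthesis, -2.84 and -3.28 in morulae and -0.07 and -0.17 in TE (7.68-fold).

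Protein folding and stress genes moved in both directions, with 15 of 67 higher in TE (22.4%, against 11.1% of all genes) and 12 higher in morulae (17.9%, against 9.14%). CALR and PDIA3, which fold glycoproteins in the endoplasmic reticulum, both rose. CALR was -1.75 and -2.11 in morulae and 0.28 and 0.01 in TE (4.22-fold) and PDIA3 -1.74 and -1.89 in morulae and 0.23 and -0.02 in TE (3.78-fold). DNAJC15, a co-chaperone of the mitochondrial inner membrane, was 2.12 and 2.18 in morulae and -0.12 and -0.52 in TE, 5.53-fold higher in morulae (adjusted p = 0.000117), and DNAJB1, of the cytosol, 3.15-fold, a call that did not hold without morula replicate 2 or TE replicate 2. The cytosolic chaperones HSP90AA1 and HSPA8, both saturated on some arrays, did not pass. Interferon response genes, with 3 of 27 higher in TE and 1 higher in morulae, were called higher in TE at the same share as all genes. USP18, a deconjugating enzyme induced by interferon, was -2.33 and -2.09 in morulae and -0.33 and -0.26 in TE (3.77-fold), and IRF1, a transcription factor of the interferon response, 1.24 and 1.01 in morulae and -0.74 and -0.67 in TE, 3.55-fold higher in morulae (SE 0.12, adjusted p = 0.000123).

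Signalling pathways differed in their shares of calls. In the Hippo pathway, which sets the fate of outer cells through YAP and its relative TAZ, 4 of 25 genes were higher in TE (16.0%, against 11.1% of all genes) and 1 higher in morulae (4.00%, against 9.14%). WWTR1, which codes for TAZ, was 1.95 and 2.08 in morulae and -0.55 and -0.58 in TE, 5.95-fold higher in morulae (SE 0.10, adjusted p = 2.72e-05). The target CYR61, a matrix protein, was -1.60 and -2.10 in morulae and 0.74 and 0.01 in TE (4.68-fold higher in TE), and WWC1, an upstream activator of the kinases, -0.77 and -1.09 in morulae and 0.52 and 0.68 in TE (2.89-fold). NF2, another upstream member, did not pass. Without TE replicate 2 the counts of this pathway were 2 and 2. WNT genes were called below the shares of all genes, in 3 of 37 cases higher in TE (8.11%) and in 1 higher in morulae (2.70%). The 3 gains were ligands, with WNT6 at -3.20 and -3.30 in morulae and 0.37 and 0.01 in TE (10.9-fold, SE 0.12, adjusted p = 2.49e-05, not passing as the mean over its probes), WNT2B at -1.47 and -1.56 in morulae and 0.31 and 0.49 in TE (3.77-fold) and WNT5B at 2.85-fold. WNT2B was also higher in TE than in the ICM, at -0.72 and -0.64 (adjusted p = 0.0255). The secreted WNT antagonist DKK1 was 2.01-fold higher in morulae, and its call did not hold without morula replicate 2 or TE replicate 1, nor that of WNT5B without morula replicate 1 or TE replicate 2.

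BMP, activin and nodal genes had 3 of 39 higher in TE (7.69%) and 7 higher in morulae (17.9%, against 9.14% of all genes). ID3, a target of BMP signalling that blocks helix-loop-helix factors, was 2.68 and 3.33 in morulae and -0.23 and -0.62 in TE, 10.8-fold higher in morulae (SE 0.42, adjusted p = 0.00124), with only 1 array of each group above background. BAMBI, a decoy receptor, was 2.17 and 2.66 in morulae and 0.01 and -0.13 in TE (5.55-fold higher in morulae). Of 9 receptors on the list 2 rose and 7 did not pass: TGFBR3, the co-receptor betaglycan, was -1.21 and -0.93 in morulae and 0.24 and 0.50 in TE (2.72-fold), and ACVR2A, which binds activin, -0.75 and -0.82 in morulae and 0.34 and 0.65 in TE (2.42-fold). Neither call held for the mean over the probes of the gene, nor that of ACVR2A with normexp background correction. Growth factor and MAPK genes were called at about the shares of all genes, with 5 of 48 higher in TE (10.4%) and 4 higher in morulae (8.33%). The receptors ERBB2, of the EGF receptor family, and MET, of hepatocyte growth factor, were among the 5. ERBB2 was -1.72 and -2.26 in morulae and 0.81 and 0.49 in TE (6.23-fold) and MET -1.98 and -2.53 in morulae and 0.11 and 0.18 in TE (5.27-fold). FGFR4, an FGF receptor, was 1.63 and 1.18 in morulae and was not well above background on either TE array, so that it was at least 4.43-fold higher in morulae (adjusted p = 4.14e-05), counting the TE at the lowest signal above background. FGFR2 did not reach the fold minimum (log2 difference 0.48, adjusted p = 0.0388).

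**Figure D4:**
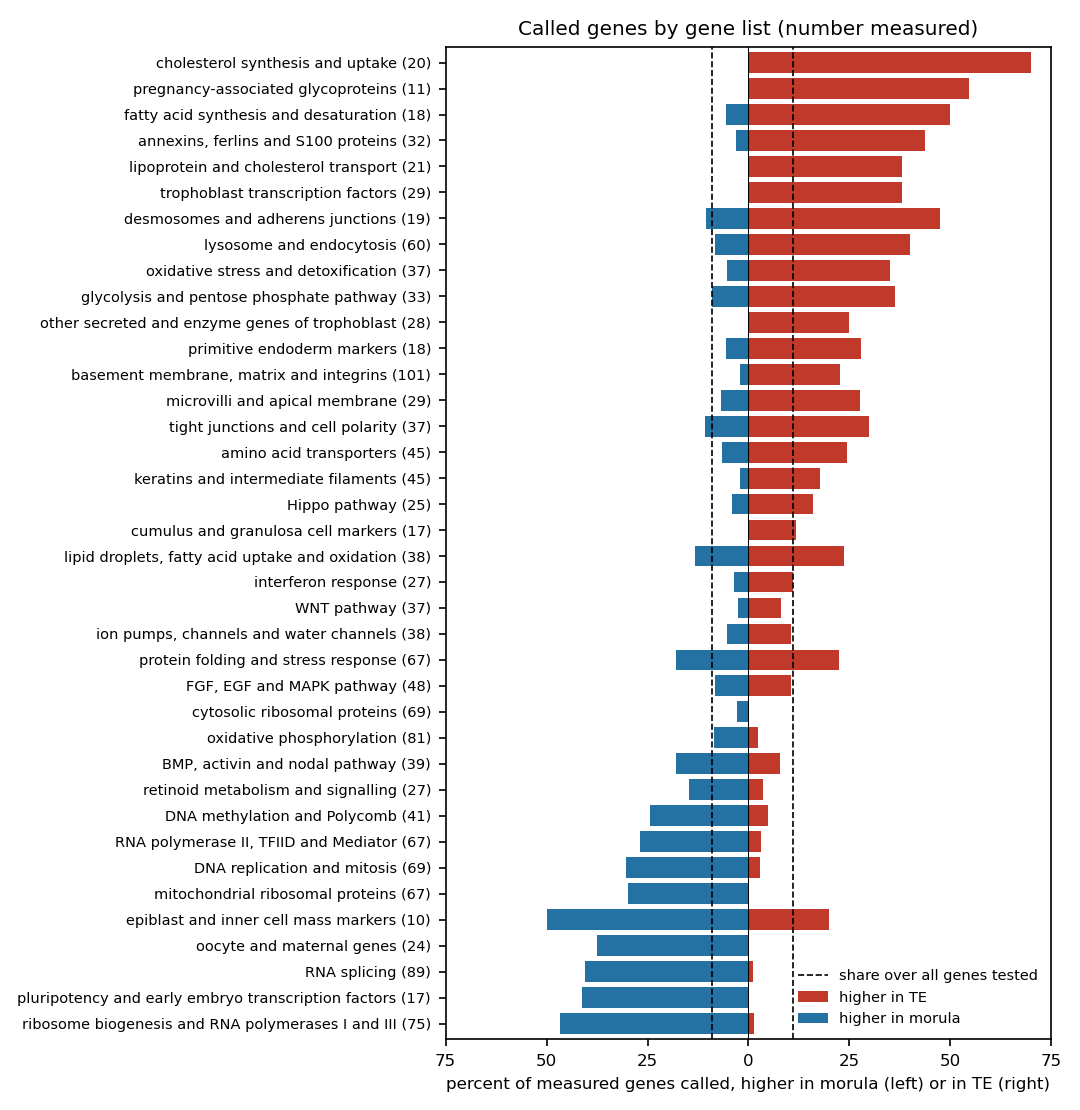
Percent of measured genes called higher in TE (red, to the right) and higher in morulae (blue, to the left) for each of 38 gene lists, with the number of measured genes in brackets. Dashed lines mark the shares over all 12552 genes, 11.1% and 9.14%. Lists of cholesterol synthesis and pregnancy-associated glycoproteins stood at the gaining end, and those of epiblast markers, ribosome biogenesis, pluripotency factors and splicing at the losing end.

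Lists of nuclear machinery held the largest numbers of losses. Genes of ribosome biogenesis and of RNA polymerases I and III were higher in morulae in 35 of 75 cases and higher in TE in 1, with a median log2 difference of -0.94. The 28 called processing factors lay between 0.45 and 2.42 in morulae and between -0.69 and 0.39 in TE, and their folds ran from 2.02 to 4.43. NOP16 and UTP20, nucleolar proteins of rRNA processing, both fell. NOP16 was 1.59 and 1.51 in morulae and -0.59 and -0.61 in TE (4.43-fold) and UTP20 2.31 and 2.42 in morulae and 0.08 and 0.39 in TE (4.38-fold). POLR1C, a subunit shared by both polymerases, was 2.23 and 2.77 in morulae and -0.19 and 0.00 in TE (6.05-fold, SE 0.13, adjusted p = 6.36e-05). UTP14A was the 1 gain, at 2.07-fold, and that call was lost with median centring, with normexp background correction, and without morula replicate 2 or TE replicate 1.

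RNA splicing lost 36 of 89 genes (40.4%) and gained 1 (1.12%), with a median log2 difference of -0.73. Genes listed under the spliceosomal particles were called most often, 14 of 24. SNRNP25, of the minor spliceosome, was 1.44 and 1.68 in morulae and -0.52 and -0.82 in TE (4.69-fold, SE 0.14, adjusted p = 0.000117). SNRPD2, of the Sm ring, was 1.38 and 1.55 in morulae and -0.30 and -0.68 in TE (3.89-fold). LSM1, counted with them although it takes part in mRNA decay, was 1.63 and 1.84 in morulae and -0.16 and -0.37 in TE (3.99-fold). Losses of this size were small beside those of the regulators above. SFRS4, now SRSF4, was 2.28-fold higher in morulae by its brightest probe, while 1 of its other probes was called in the opposite direction. Subunits of RNA polymerase II, TFIID, TFIIH and Mediator were lost in 18 of 67 cases and gained in 2. TAF5, of TFIID, was 1.89 and 1.99 in morulae and -0.33 and -0.35 in TE (4.86-fold, SE 0.11, adjusted p = 5.51e-05), POLR2G, of the polymerase, 1.33 and 1.77 in morulae and -0.21 and -0.42 in TE (3.64-fold), and MED31, of Mediator, 1.31 and 1.48 in morulae and -0.22 and -0.69 in TE (3.60-fold). MED12, of the Mediator kinase module, went up instead, from -1.70 and -1.73 to -0.09 and 0.26 (3.48-fold, adjusted p = 0.000246).

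Mitochondrial and cytosolic ribosomes differed in these counts. Of 67 mitochondrial ribosomal proteins 20 were higher in morulae and none was higher in TE, with a median log2 difference of -0.72, and MRPL32 was 1.30 and 1.63 in morulae and -0.29 and -0.59 in TE (3.73-fold, SE 0.19, adjusted p = 0.000576). Of 69 genes on the list of cytosolic ribosomal proteins 2 were higher in morulae and none higher in TE, with a median of 0.17. Those 2 were RPS27L and RPL7L1 (3.24-fold and 3.15-fold), which are relatives of ribosomal proteins and not core subunits. RPL23, a core subunit, was 0.00 and -1.14 in morulae and 0.30 and -0.67 in TE, so that its replicates overlapped. Oxidative phosphorylation had 7 of 81 genes higher in morulae, 8.64% against 9.14% of all genes, and 2 higher in TE, 2.47% against 11.1%, with a median of -0.26. Small subunits such as NDUFB1 of complex I (2.43-fold) and COX7B of complex IV (2.39-fold) were among the 7, and ATPIF1, the inhibitor of ATP synthase, was -1.65 and -1.50 in morulae and 0.13 and 0.06 in TE (3.19-fold higher in TE). The 7 calls higher in morulae became 14 when arrays were centred on the median and 12 without morula replicate 1.

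Chromatin and cell cycle genes were also called more often higher in morulae, with exceptions among regulators. DNA methylation and Polycomb genes were higher in morulae in 10 of 41 cases (24.4%) and higher in TE in 2 (4.88%). The maintenance methyltransferase DNMT1 was 1.61 and 1.45 in morulae and -0.43 and -0.21 in TE (3.61-fold, SE 0.20, adjusted p = 0.000836), and its partner UHRF1 1.22 and 1.36 in morulae and -0.15 and -0.68 in TE (3.27-fold). EZH2, which writes the Polycomb mark on histone H3, was 1.93 and 2.09 in morulae and 0.26 and -0.09 in TE (3.80-fold, SE 0.13, adjusted p = 0.000158). Both exceptions act on cytosine methylation. DNMT3A, the de novo methyltransferase, was -3.77 and -4.20 in morulae and 0.38 and 0.38 in TE, 20.6-fold higher in TE (SE 0.20, adjusted p = 4.9e-05), and TDG, a glycosylase of active demethylation, -3.79 and -4.15 in morulae and -0.10 and 0.00 in TE (15.1-fold, SE 0.15, adjusted p = 3.05e-05). Replication and mitosis genes were higher in morulae in 21 of 69 cases (30.4%) and higher in TE in 2 (2.9%). CCNA1, the cyclin A of germ cells and early embryos, was 2.54 and 3.15 in morulae and -1.21 and -0.74 in TE (14.1-fold, SE 0.18, adjusted p = 4.86e-05), and CCNB1, the mitotic cyclin B, 1.65 and 2.12 in morulae and -0.75 and -0.71 in TE (6.15-fold). The gains were CDKN1C, an imprinted cyclin-dependent kinase inhibitor, at -1.77 and -2.02 in morulae and 0.04 and 0.25 in TE (4.12-fold), and the G1 cyclin CCND2, at -1.39 and -1.99 in morulae and 0.06 and 0.09 in TE (3.39-fold).

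Oocyte and maternal genes were higher in morulae in 9 of 24 cases, 37.5% against 9.14% of all genes. None was called higher in TE by its brightest probe, but 1 other probe of TLE6, counted as higher in morulae, was. CPEB1, which controls the translation of stored mRNA, was 2.98 and 3.65 in morulae and -0.93 and -0.70 in TE (17.4-fold, SE 0.18, adjusted p = 4.27e-05). KPNA7, an importin of oocytes and early embryos, was 2.69 and 3.88 in morulae and -0.15 and 0.05 in TE (10.1-fold), GDF9, an oocyte growth factor, 2.78 and 2.89 in morulae and -0.27 and -0.13 in TE (8.18-fold) and BTG4, which helps to clear maternal mRNA, 2.49 and 2.93 in morulae and -0.20 and -0.10 in TE (7.24-fold). In the TE these genes lay near or below the level of the blastocyst pool, and the groups did not overlap. ZP3, of the zona pellucida, was -0.08 and -0.25 in morulae and 0.19 and -0.05 in TE and did not pass.

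Pluripotency and early embryo factors fell in 7 of 17 cases and none rose. ARGFX, a homeobox gene of early embryos, was 3.14 and 5.20 in morulae and -0.40 and -0.58 in TE (25.3-fold, SE 0.58, adjusted p = 0.00137), and KLF4 2.42 and 2.43 in morulae and 0.36 and 0.59 in TE (3.85-fold, SE 0.12, adjusted p = 0.000106). SOX2, needed by the epiblast, was 2.08 and 2.37 in morulae and -2.02 and -2.07 in TE, 19.3-fold higher in morulae (SE 0.19, adjusted p = 4.28e-05). NANOG, another epiblast factor, was already under the pool in morulae, at -0.999 and -0.83, and was -2.37 and -2.50 in TE (2.87-fold, SE 0.23, adjusted p = 0.00327). The mean over all probes of NANOG did not pass, nor did those of CAV1, FLRT3 and NID1 described below. On the list of epiblast and ICM markers 5 of 10 fell and 2 rose, and 3 fell without morula replicate 2 or TE replicate 1, when ZIC2 was among those lost. TBX3, which pluripotent cells and trophoblast share, was -0.08 and -0.66 in morulae and 0.61 and 0.41 in TE, 1.84-fold higher in TE at an adjusted p of 0.00764 and thus short of the minimum.

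The ICM of the same day was set beside the TE in the same fit, a comparison that shares the TE arrays. The ICM samples still held some TE cells, and the part of these cells in the ICM values was not tested. Between these tissues 29 genes (0.231% of those tested) were higher in TE and 167 (1.33%) were higher in the ICM, and 1252 genes (9.97%) were higher in the ICM than in morulae. SOX2 was 0.94 and 1.19 in the ICM, against -2.02 and -2.07 in TE (adjusted p = 0.0033), and NANOG 0.99 and 1.59 against -2.37 and -2.50 (adjusted p = 0.0033). AK4 was 2.29 and 2.27 in morulae, -1.91 and -2.21 in TE and 0.96 and 0.82 in the ICM (adjusted p = 0.0027 between TE and ICM). The metabolic genes TKTL1, PFKFB4 and FABP3 were likewise higher in the ICM than in TE, with ICM values of 0.87 and 1.13 for TKTL1 (adjusted p = 0.0152), of 1.31 and 0.78 for PFKFB4 (adjusted p = 0.0151) and of 0.73 and 0.87 for FABP3 (adjusted p = 0.00441). All of these were below the pool in TE and above it in the ICM, and all but NANOG were above it in morulae. CLDN10, at 0.73 and 0.30 in the ICM, did not pass between the tissues (adjusted p = 0.0528), nor did AGXT2L1, at 0.03 and 0.12 (adjusted p = 0.316), and CPEB1, at -0.43 and -0.42 (adjusted p = 0.387).

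A few genes rose from the morula to the TE and were higher still in the ICM. FLRT3, an adhesion protein, was -3.63 and -3.47 in morulae, -1.30 and -1.16 in TE and 1.55 and 1.54 in the ICM (5.03-fold from morula to TE, adjusted p = 6e-04 there and 0.00764 between TE and ICM). CAV1, the coat protein of caveolae, was -3.69 and -3.70 in morulae, -1.77 and -1.76 in TE and 0.96 and 1.45 in the ICM (3.82-fold, adjusted p = 0.000303 and 0.00283), and NID1, the basement membrane protein nidogen, -2.85 and -2.64 in morulae, -1.11 and -1.30 in TE and 1.54 and 1.53 in the ICM (2.91-fold, adjusted p = 0.000871 and 0.0033). Each was thus below the pool in TE. The receptor KIT followed the same order at -1.66 and -1.50 in morulae, -1.06 and -1.17 in TE and 1.63 and 1.61 in the ICM, without reaching the fold minimum between morula and TE (1.38-fold, adjusted p = 0.0181). In the opposite direction, PAGE4, SQLE and HMGCS1 exceeded the ICM, where PAGE4 stood at -0.45 and -0.56 (adjusted p = 0.0126), SQLE at -0.09 and -0.22 (adjusted p = 0.0126) and HMGCS1 at -0.65 and -0.86 (adjusted p = 0.0155). Their ICM levels were nonetheless far closer to the TE than to the morula.

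**Figure D5:**
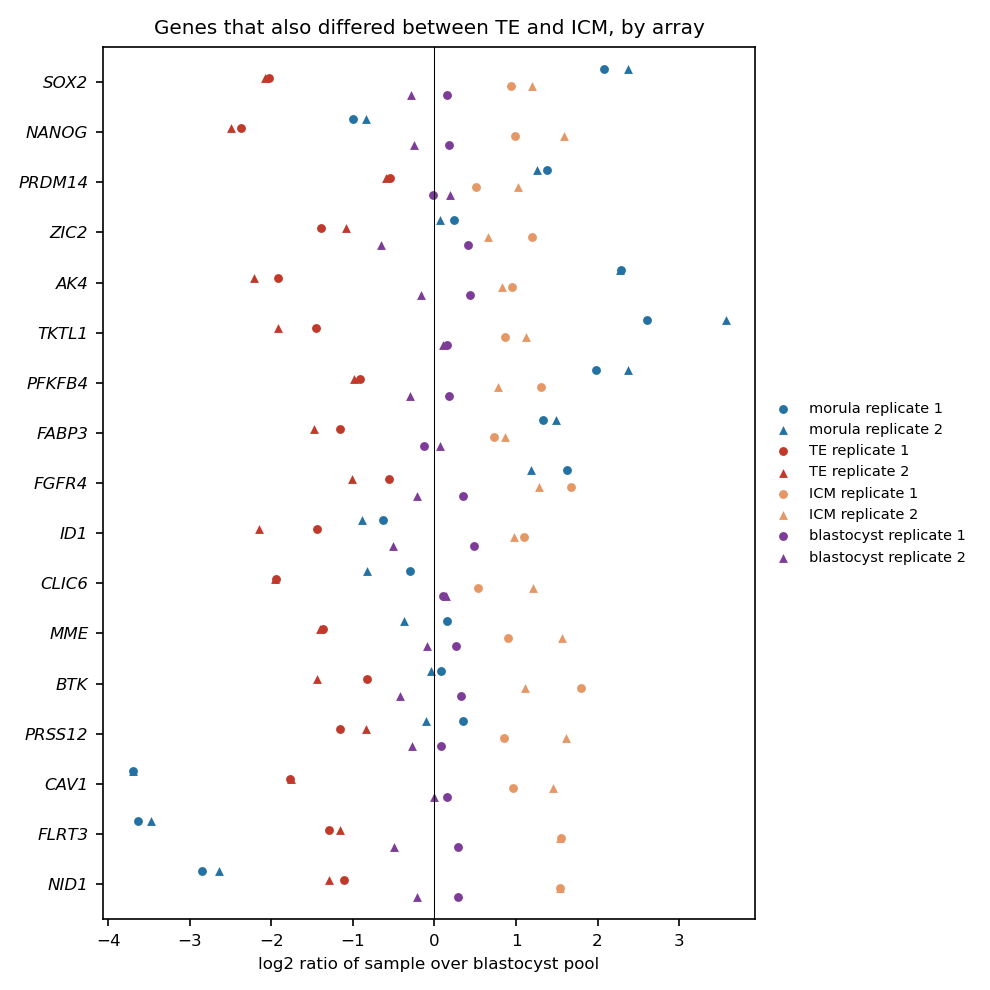
Log2 ratio over the blastocyst pool (horizontal axis) on each array for 17 genes called between TE and morula and between TE and ICM, chosen after their values were seen. Circles are replicate 1 and triangles replicate 2, blue for morula, red for TE, orange for ICM and purple for the intact blastocysts that made up the pool. TE values lay below the ICM values for every gene shown, and CAV1, FLRT3 and NID1 were lower still in morulae.

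The intact blastocysts that made up the pool were also compared with TE. Between them 4 genes were called higher in TE and 2 lower, 0.0478% of those tested. SLC25A37, with 2.77 and 2.64 in TE and 2.90 and 2.90 in the ICM, was 0.01 and -0.20 in blastocysts (adjusted p = 0.0268), and IFIT2, an interferon-induced gene that was -0.46 and -0.70 in morulae, was 1.54 and 1.25 in TE, 1.77 and 1.55 in the ICM and 0.08 and -0.23 in blastocysts (adjusted p = 0.0268). LANCL3 and SAMD14 were the other genes above blastocysts, LANCL3 with -1.77 and -2.27 in morulae, 2.77 and 2.42 in TE, 2.59 and 2.74 in the ICM and 0.03 and -0.09 in blastocysts. SAMD14 was -0.03 and -0.31 in morulae, 1.62 and 1.21 in TE, 2.05 and 1.46 in the ICM and 0.13 and -0.33 in blastocysts. All 4 were called higher in TE than in morulae and lay above the pool in both dissected tissues, and the part of the dissection in these gains was not tested. The splicing helicase DHX16, the 1 gain among splicing genes, had the same form, at 0.30 and 0.22 in morulae, 1.71 and 1.75 in TE, 1.48 and 2.22 in the ICM and -0.36 and 0.33 in blastocysts, although TE and blastocyst were not called apart. AK4 and DPYS, an enzyme of pyrimidine breakdown, were the genes below blastocysts, and DPYS was -2.44 and -2.32 in morulae and -1.46 and -1.45 in TE, short of the fold minimum, with 0.64 and 0.97 in the ICM. LANCL3, SAMD14 and DPYS were named after their values were seen.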

How the data were processed

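Two-colour arrays of 45220 spots were read for 8 samples, 2 each of morula, blastocyst, ICM and TE. The deposited files hold intensity values, the mean signal and local background per spot and dye as the image software gave them to the authors, with no normalization stated. A deposited table of log2 ratios per array, to which the authors applied loess and a correction of dye bias, served as an alternative, with its scale checked against the scanner values. The array was an Agilent bovine whole-genome design, whose genome build is not given in the sources used here, and the files used carry no slide or scan date, so that no such batch could be tested.

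Signals were log2 transformed without background subtraction, normalized by loess within each array with limma 3.58.1 in R 4.3.3, and turned to sample over pool. A spot was above background when its signal exceeded the local background by 2 standard deviations of that background. Group means and a dye term, which is also the replicate block since replicate 1 was always in Cy3 and replicate 2 in Cy5, were fitted over all 8 arrays with lmFit and eBayes, with Benjamini-Hochberg adjustment of the p-values over 43653 gene probes. The study's methods used a permutation F test, and took the probe nearest the 3′ end, whose position is not known here, so the probe of highest mean intensity stood for each of 12552 genes. The blastocyst samples, which made up the pool, entered this fit, and with only the 4 arrays compared 1398 genes were higher in TE and 1151 higher in morulae. A call needed 2-fold and an adjusted p under 0.05. Each group held 2 pools of embryos. A p-value reflects the spread left between replicates over all groups after the dye term, drawn toward a prior over probes. It had 3 residual and 3.17 prior degrees of freedom. The blastocyst samples also entered this spread, so that it is not the spread between the embryo pools of the compared groups alone. The number of arrays limits the precision (median SE 0.121 on the log2 scale). Deviations of the same-numbered morula and TE replicates from their group means correlated at 0.322, and both shared a dye. A bound ("at least") set the dim group at the lowest signal above background, after Aquantile scaling of the channels, with dyes balanced within each group.

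Gene symbols were matched to RefSeq names of the assembly ARS-UCD2.0 (11600 current, 922 as synonyms, 30 not found). Genes were named by rule: the 15 largest calls in each direction, up to 4 called per direction and 2 brightest uncalled per list, label checks, and members with probes called in opposite directions. The members, 38 lists and rules were chosen with earlier results of these data known. The fit was tested on simulated data. Alternatives were normexp background correction, median centring, Aquantile, the deposited ratios, a brightness filter, other fold minimums, other probe choices, a fit without the block, the 4 arrays alone and leaving out each replicate. Tables and plots used Python 3.11.15.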

Additional observations from a re-analysis of the deposited data

Results flagged for a closer look

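Of the 12552 genes tested, 6 moved in opposite directions from the morula to the parts of the blastocyst. Each was called lower than the morula in TE and higher than the morula in the ICM. The difference between TE and ICM was itself called in the fit over all arrays. NANOG, the epiblast factor, differed most, with a log2 difference of TE from ICM of -3.73 (adjusted p = 0.0033), made of -1.52 from morula to TE and 2.21 from morula to ICM. ID1, a target of BMP signalling that blocks helix-loop-helix factors, had a difference of -2.83 (adjusted p = 0.00576), with -0.63 and -0.89 in the morula replicates, -1.44 and -2.15 in TE and 1.10 and 0.98 in the ICM. CLIC6, an intracellular chloride channel protein, had a difference of -2.81 (adjusted p = 0.00896), with -0.29 and -0.83 in morulae, -1.94 and -1.95 in TE and 0.53 and 1.21 in the ICM. The calls of CLIC6 and MME between TE and morula did not hold with normexp background correction. MME, a membrane metalloprotease also called neprilysin, had a difference of -2.62 (adjusted p = 0.0121), with 0.16 and -0.37 in morulae, -1.37 and -1.40 in TE and 0.91 and 1.57 in the ICM. BTK, a tyrosine kinase known from B cells, had a difference of -2.59 (adjusted p = 0.00336), with 0.09 and -0.04 in morulae, -0.82 and -1.44 in TE and 1.80 and 1.12 in the ICM. PRSS12, a secreted serine protease, had a difference of -2.23 (adjusted p = 0.0222), with 0.35 and -0.10 in morulae, -1.15 and -0.83 in TE and 0.85 and 1.62 in the ICM. From morula to TE the adjusted p in the same fit was 0.00327 for NANOG, 0.0114 for ID1 and 0.0073 for CLIC6. It was 0.0123 for MME, 0.00236 for BTK and 0.0284 for PRSS12. The log2 differences of ID1, BTK and PRSS12 from morula to TE, -1.03, -1.15 and -1.12, lay close to the fold minimum. ID1, BTK and PRSS12 were named after their values were seen. Groups of 2 were too small for a test of single outlying samples.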

How the results depend on the processing

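No called gene was called in the opposite direction under any other setting. With 1 replicate left out, when the lone sample of its group is assumed to vary like the other groups, between 1304 and 1471 genes were higher in TE and between 1127 and 1160 higher in morulae. Without the replicate block, which is the dye term, 1384 genes were higher in TE and 1140 higher in morulae, and ATP1B3 and DUSP4 were the named genes that lost their calls. With normexp background correction 2225 gene probes were higher in TE, in place of 3389. Without a fold minimum 2919 genes and 7678 probes were higher in TE and 2674 genes and 7984 probes higher in morulae, and with a 1.5-fold minimum these were 2203 and 5649, and 2055 and 5895. When the probes of a gene were averaged, 879 genes were higher in TE and 830 higher in morulae, and MMP25, a protease at no difference by its brightest probe, had a log2 difference of 1.80 (adjusted p = 8.28e-05), since the brightest probe then shared its weight with others. Of the genes named with values, averaging ended the calls of ACSL1, ACVR2A, AQP3, ATP1B1, CYP19A1, DNMT1, DSP, FGFR4, IRF1, KRT15, MED12, PKP3, RBP4, S100B, SFRS4, TEAD3, TGFBR3, WNT5B and WWC1 beside those named above, normexp those of ACVR2A, CYP19A1, DKK1, POLR1C, RDH10, TEAD3 and WNT5B, and the brightest unsaturated probe those of DSP, FADS1, PLAC8 and PLAU. Signal over background limits the folds of dim genes: 16 called genes were above background on neither morula array and 10 on neither TE array.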
